A study of Mus musculus with 12 samples.

Results

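The DNA replication machinery was examined as 43 genes, taken from a fixed list and looked up by symbol in the expression tables of mouse tumor organoids grown in BME and on plastic. Each table lists 24906 genes, and all 43 were listed in both. All 43 also passed the filter on low values, a mean of at least 0.5 FPKM over the 6 libraries of a table. FPKM is a fragment count scaled to transcript length and to a measure of library size. The genes were placed in 12 role groups, from the helicase that opens DNA to the enzymes that make its building blocks. The rule used no measured value, but the genes and groups were chosen with earlier results of these data known.

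Replication of the genome begins when origins are licensed in G1 phase: the origin recognition complex, CDC6 and CDT1 load the ring-shaped MCM helicase onto DNA. At the start of S phase, CDC45 and the GINS complex join the helicase, polymerases alpha, delta and epsilon copy the strands, and PCNA, a sliding clamp loaded by replication factor C (RFC), holds the polymerases on DNA. Ribonucleotide reductase, thymidylate synthase and thymidine kinase supply the nucleotides. Many of these genes are transcribed in G1 and S phase through E2F factors, so their mRNA is often read as a sign of cycling cells. In the intestinal epithelium such expression is typical of the crypt, and it is switched off as cells differentiate.

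The 12 libraries came from small-intestine tumor organoids with the genotype Smad4KO;BRAFV600E/+;pINDUCER-SMAD4. They were derived from tumors of Smad4f/f; BRAFV600E/+; Villin-CreERT2 mice, whose Cre is made in the intestinal epithelium and becomes active once tamoxifen is given, which the study's methods place in young adult mice. The organoids were transduced with a lentivirus that expresses SMAD4 when doxycycline (dox) is given. By the labelled genotype, untreated libraries carried every allele and the construct too. Organoids received vehicle or 4 µg/mL dox for 48 h, in BME (a basement membrane extract, 3D culture) or directly on tissue culture plastic. In BME there were 3 untreated libraries (lines 682, 700 and 889), a dox library for lines 700 and 889 each, and 1 library of line 682 labelled dox with the word mock. Whether that library carried a mock plasmid in place of SMAD4 is not stated in its labels, and the study counts it with the controls. The plastic arm held lines 560, 700 and 889, each with 1 untreated and 1 dox library. Organoids with the same line number share their derivation, and the labels do not say whether the libraries of a line came from separate cultures. The 2 tables were normalized separately, so levels are compared within a table, and between environments only the change with dox is compared.

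A sequence feature that many of these genes share is the E2F-type motif, read here as TTT, then 2 letters each C or G, then CGC (TTTCCCGC, TTTCGCGC, TTTGCCGC or TTTGGCGC, either strand). RefSeq promoter windows (GRCm38.p6, 250 bases before and 50 after the gene's start) were used for 35 of the 43 genes, all but Prim2, Pole, Gins1, Gins2, Mcm4, Gins4, Ccne2 and Rfc2. The motif was in 14 of the 35 windows (40.0%), compared with 2.60% of 27025 windows of all genes and 4.74% of the 9645 windows of genes tested on plastic. Within the upstream bases alone it was in 9 windows (25.7%, compared with 2.16% and 3.98%). The stretches below surround the motif nearest the upstream end of the window in 6 of the genes that hold it, shown as examples from 3 roles: 3 helicase subunits, a pair of licensing genes and the chromatin gene Uhrf1. Of these, Orc1 was not lower with dox in every plastic line. Lower-case letters are context and capitals mark the motif, which in Mcm5 and Mcm6 is a pair of overlapping matches on opposite strands.
Mcm5: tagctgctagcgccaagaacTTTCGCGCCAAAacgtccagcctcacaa
Mcm6: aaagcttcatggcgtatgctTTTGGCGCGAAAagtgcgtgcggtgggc
Mcm7: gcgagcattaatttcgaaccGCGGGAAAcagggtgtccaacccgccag
Cdc6: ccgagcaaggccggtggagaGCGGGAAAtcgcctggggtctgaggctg
Orc1: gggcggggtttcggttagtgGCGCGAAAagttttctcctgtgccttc
Uhrf1: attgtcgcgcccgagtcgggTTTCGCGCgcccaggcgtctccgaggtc
Each stretch is written along the gene's own strand, 5′ to 3′. The positions in GRCm38.p6 are Mcm5 chr8:75109336-75109383 (plus strand), Mcm6 chr1:128359788-128359835 (minus strand), Mcm7 chr5:138172021-138172068 (minus strand), Cdc6 chr11:98907993-98908040 (plus strand), Orc1 chr4:108579407-108579453 (plus strand) and Uhrf1 chr17:56304108-56304155 (plus strand). A CCAAT box (CCAAT, either strand) was in 21 of 35 windows (60.0%, compared with 41.1% of all genes and 43.05% of genes tested on plastic). The SP-type GGGCGG was in 27 (77.1%, compared with 38.2% of all genes and 69.0% of genes tested on plastic). The CHR element (TTTGAA), which marks many later cell cycle genes, was in 5 (14.3%, compared with 20.2% and 14.1%). A GGGCGG match can share bases with an E2F-type one, and a match describes letters and not a bound site. The change on plastic, averaged over the 3 lines, had a median of -0.72 over the 14 genes with the E2F-type motif and -0.68 over the 21 without it. In BME the medians were -0.90 and -0.69 in line 700 and -0.04 and 0.05 in line 889. With upstream bases alone they were -0.78 (9 genes) and -0.67 (26 genes) on plastic, -0.99 and -0.72 in BME line 700, and -0.05 and 0.05 in BME line 889.

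Values were analysed as log2(FPKM + 1), and a change is the dox library minus the untreated library of the same line on this scale, which understates the change of low genes. Values on plastic are given for lines 560, 700 and 889 in that order, and those in BME for lines 700 and 889 and then for the mock pair of line 682. Smad4, the gene under dox control, was higher with dox by 1.28 in line 700 and 1.97 in line 889 in BME and by 4.88, 2.26 and 3.12 in lines 560, 700 and 889 on plastic. In the mock pair the difference was 0.19. Across libraries its limma change was 3.42 (SE 0.55, adjusted p 0.162) on plastic and 1.36 (SE 0.27, adjusted p 0.959) in BME, so the induced gene itself did not pass the adjusted threshold in either fit. Which exons the deletion removes is not given, so reads in untreated libraries (1.54 to 8.88 FPKM) do not test it. If FPKM was scaled to library totals, steps between low values correspond to about 12.8 to 15.8 M reads per library in BME. On plastic they correspond to 15.5 to 20.4 M. The lowest member count was about 26 reads (Gins3, dox line 700 in BME). By this estimate the dox libraries of lines 700 and 889 were the shallowest on plastic, at about 16.5 and 15.5 M reads. All 7 epithelial markers reached 1 FPKM in both tables. None of the 3 endothelial markers reached 1 FPKM in any library, 1 of 5 immune markers (Cd68) did, and 3 of 7 mesenchymal markers did in BME and none on plastic.

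On plastic the replication genes were lower with dox in every line (the plot of members beside all genes and the map of changes per pair). The median change over the 43 genes was -0.59 in line 560, -0.56 in line 700 and -0.73 in line 889, a mean of -0.63 ± 0.09 (SD, n = 3 lines). The number of members lower with dox was 39, 42 and 42 of 43, where 49.8%, 50.0% and 49.0% of the 12333 genes tested were lower and the median of all genes was within 0.01 of 0. In all 3 lines 37 of 43 members were lower, compared with 18.7% of all genes. The other 6 were Mcm4, Orc1, Pola1, Pcna, Ccne1 and Ccne2. A change under -0.5 in every line was seen for 14 members (Mcm2, Mcm3, Mcm5, Mcm6, Mcm7, Cdc6, Cdt1, Cdc45, Pole2, Pold1, Rfc5, Lig1, Tk1 and Uhrf1), compared with 2.38% of all genes.

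**Figure D1:**
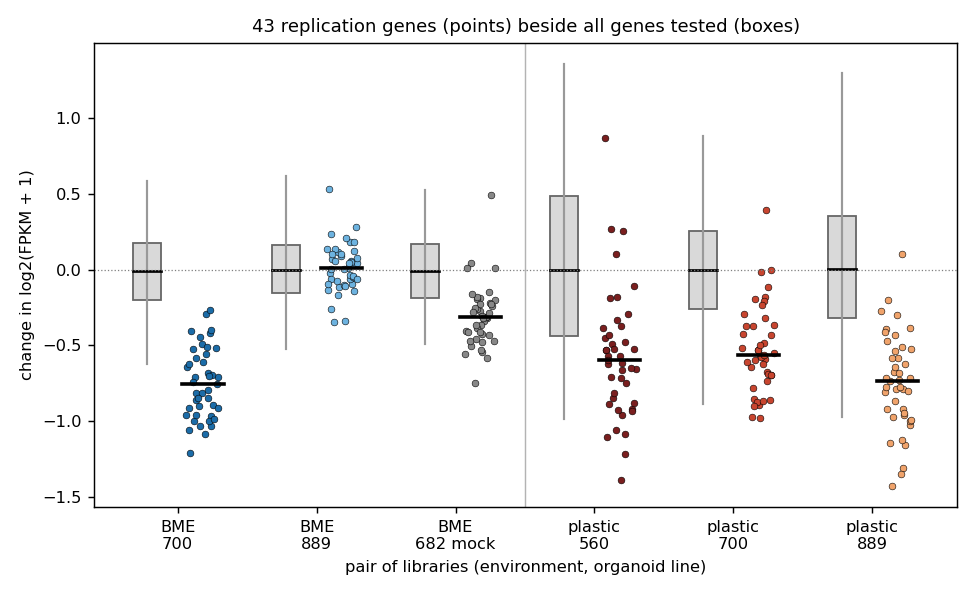
Change in log2(FPKM + 1) in each same-line pair, dox (or mock) minus untreated. Points are the 43 replication genes with a bar at their median. Grey boxes show all genes tested in that table (quartiles, median, and 5th to 95th percentile as a line). The members' median is between -0.56 and -0.73 in the 3 plastic pairs, -0.75 in BME line 700, 0.01 in BME line 889 and -0.31 in the mock pair.

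In BME the 2 lines gave different pictures. In line 700 all 43 members were lower with dox (median -0.75), compared with 50.9% of the 12996 genes tested. In line 889 the median was 0.01 and 19 of 43 were lower, compared with 50.6%. The mean of the 2 medians was -0.37 ± 0.54 (SD, n = 2 lines), so the spread between lines exceeded the mean. In the mock pair of line 682 the median was -0.31 and 39 of 43 members were lower, compared with 51.1%. With dox given and SMAD4 expressed in the same libraries, an effect of dox itself and one of SMAD4 cannot be told apart in the dox pairs, and the mock pair is 1 pair. Members lower in both dox lines numbered 19, compared with 29.5% of all genes. As all 43 were lower in line 700, these are the members lower in line 889 (44.2%, compared with 50.6% of all genes in that line). They included all 6 MCM subunits, whose changes in line 889 were -0.14 to -0.05. As these are bulk libraries, fewer cells in S phase and less RNA of these genes per cell cannot be told apart from the values here. The study also stained organoids with EdU, which marks cells that copy DNA. It reported no significant difference with dox in BME and a significant decrease on plastic.

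**Figure D2:**
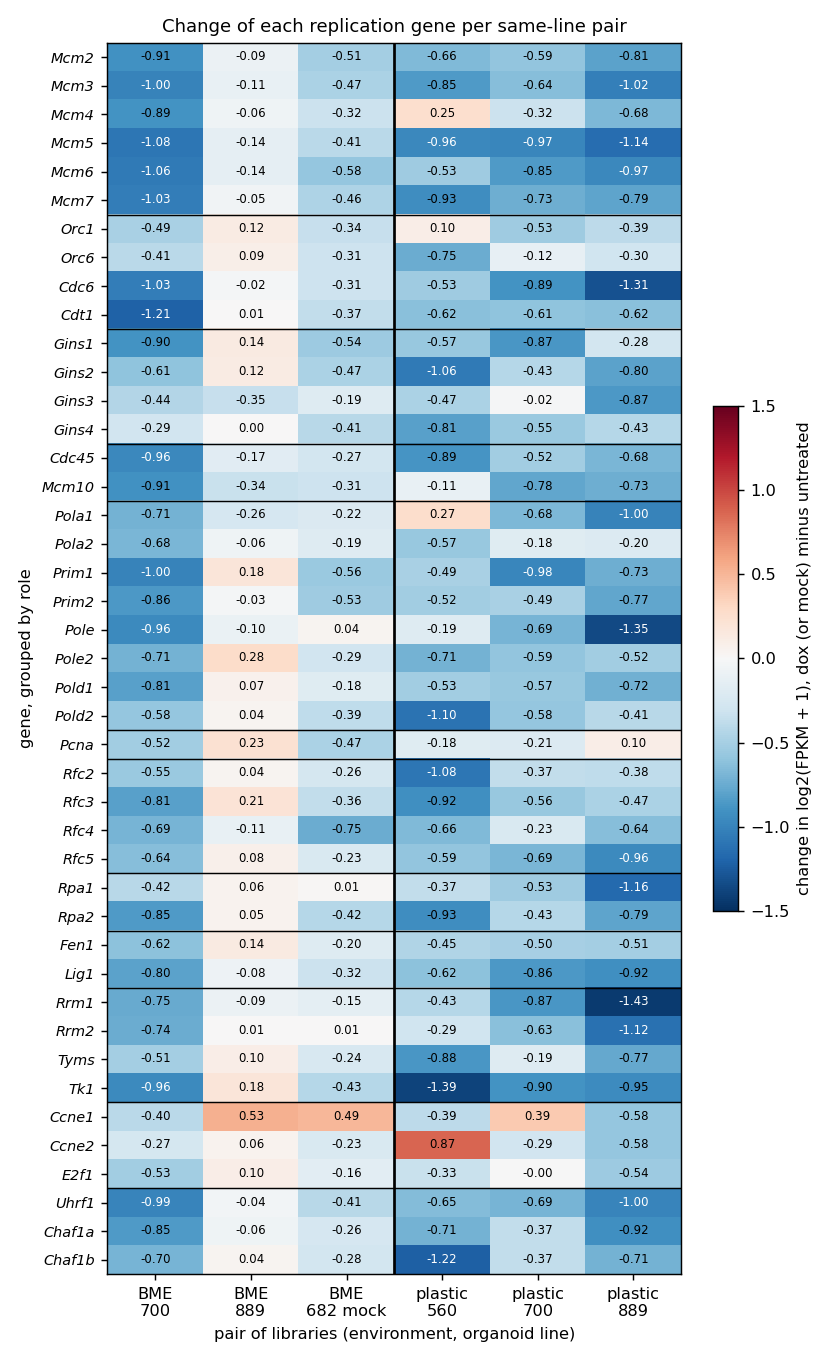
Change in log2(FPKM + 1), dox (or mock) minus untreated, for the 43 replication genes (y axis, grouped by role with lines between groups) in the 6 same-line pairs (x axis). Blue is lower and red is higher with dox. The column of BME line 889 spans -0.35 (Gins3) to 0.53 (Ccne1) with a median of 0.01, whereas BME line 700 is blue in all 43 genes.

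The MCM2-7 helicase is a ring of 6 subunits that unwinds DNA at the fork. Every subunit was lower with dox in lines 700 and 889 on plastic and in line 700 in BME, and close to its untreated level in BME line 889. The median change of the 6 was -0.76, -0.69 and -0.89 on plastic and -1.02, -0.10 and -0.47 in the BME pairs. Mcm2 on plastic was at 44.9, 31.8 and 40.9 FPKM untreated and at 28.03, 20.7 and 22.97 FPKM with dox. In BME, Mcm2 without and with dox was at 34.1 and 17.7 FPKM in line 700 and 42.7 and 39.97 FPKM in line 889, and the mock pair read 64.97 and 45.4 FPKM. Untreated libraries on plastic held 44.98, 27.8 and 40.6 FPKM of Mcm3, and dox libraries 24.6, 17.4 and 19.5 FPKM. In both subunits (Mcm2 on chromosome 6, 88833469 to 88848774, and Mcm3 on chromosome 1, 20793055 to 20810359, NCBIM37) every dox library on plastic was below every untreated one. The BME pairs of Mcm3, untreated first, were 35.5 and 17.3 FPKM, 43.7 and 40.3 FPKM and, for mock, 61.4 and 43.9 FPKM. The limma change on plastic was -0.69 (SE 0.22, adjusted p 0.505) for Mcm2 and -0.84 (SE 0.25, adjusted p 0.485) for Mcm3. Neither passed after adjustment.

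For Mcm5, the plastic libraries read 49.6, 18.3 and 31.9 FPKM without dox and 24.98, 8.85 and 13.9 FPKM with it. Mcm5 in BME read 25.9 and 11.7 FPKM without and with dox in line 700, 48.6 and 44.01 FPKM in line 889 and 52.2 and 39.1 FPKM in the mock pair. Mcm5 (chromosome 8, 77633427 to 77652338) had the largest change of the 6 subunits in every plastic line, at -0.96, -0.97 and -1.14, with dox levels at 0.503, 0.483 and 0.436 of the untreated FPKM. The groups overlapped even so, with untreated line 700 below dox line 560. Levels of Mcm6 on plastic were 37.7, 19.4 and 33.02 FPKM without and 25.8, 10.3 and 16.4 FPKM with dox. Line 700 in BME had 49.2 and 23.1 FPKM of Mcm6 without and with dox, line 889 had 53.01 and 48.1 FPKM, and the mock pair 93.4 and 62.1 FPKM. Both dox libraries were below all 4 controls in BME for Mcm6 (chromosome 1, 130228168 to 130256233) and for 1 other member, Pola2 (2 of 43, compared with 5.83% of all genes). Mcm7 measured 76.7, 36.8 and 45.4 FPKM in untreated and 39.8, 21.7 and 25.9 FPKM in dox libraries on plastic. In BME, Mcm7 without and with dox was at 65.5 and 31.5 FPKM in line 700 and 76.5 and 73.98 FPKM in line 889, and the mock pair read 116 and 84.1 FPKM. Mcm7 (chromosome 5, 138605811 to 138613650) was the most abundant subunit in every library. Its exons share bases with Ap4m1 and Cops6 on the opposite strand and hold Mir25 and Mir93 on its own, and whether the authors' quantification used strand is not stated. Mcm4 on plastic was at 19.9, 26.2 and 34.6 FPKM untreated and at 23.9, 20.8 and 21.3 FPKM with dox. With BME, Mcm4 stood at 28.9 and 15.1 FPKM (line 700, without and with dox), 38.7 and 37.1 FPKM (line 889) and 48.5 and 38.6 FPKM (mock pair). Mcm4 (chromosome 16, 15623990 to 15637493) was the exception among the subunits: in plastic line 560 its change was 0.25. The untreated library of that line was the lowest of the 3 untreated ones for Mcm4 and the highest for Mcm2, Mcm3, Mcm5, Mcm6 and Mcm7. Mcm4 made up 7.25% of the summed MCM level there and 11.1% to 20.8% in the other 11 libraries.

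**Figure D3:**
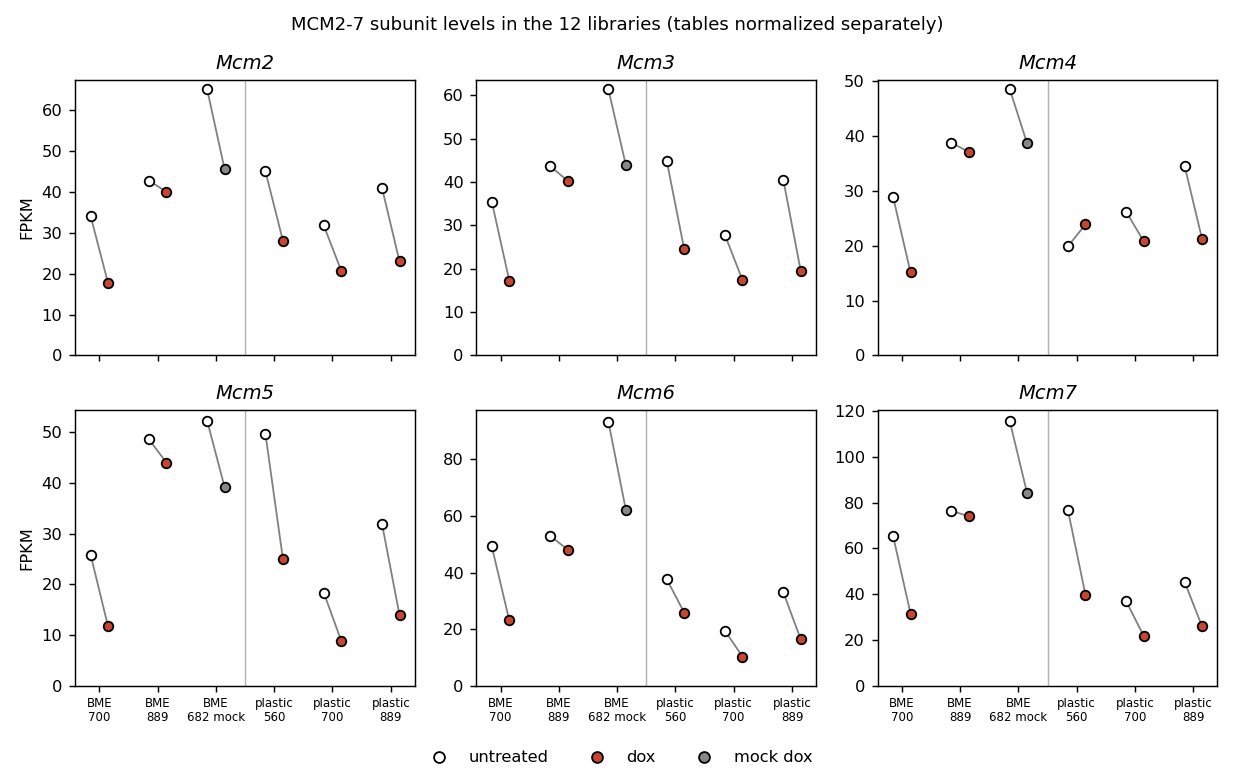
FPKM of the 6 MCM subunits (y axis, linear from 0) in the 12 libraries, with each untreated library (open) joined to the dox (red) or mock (grey) library of its line. The 3 plastic pairs slope down in all panels but Mcm4, where line 560 goes from 19.9 to 23.9 FPKM, and the BME pair of line 889 is nearly flat. Levels in BME and on plastic come from separately normalized tables.

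Origin licensing needs the origin recognition complex (Orc1 and Orc6 here) and the loaders Cdc6 and Cdt1. Untreated libraries on plastic held 4.16, 4.01 and 4.92 FPKM of Cdc6, and dox libraries 2.58, 1.70 and 1.39 FPKM. Cdc6 in BME read 5.57 and 2.21 FPKM without and with dox in line 700, 6.20 and 6.08 FPKM in line 889 and 8.43 and 6.61 FPKM in the mock pair. For Cdc6 (chromosome 11, 98769115 to 98785254) the plastic groups did not overlap, and the changes were -0.53, -0.89 and -1.31 in lines 560, 700 and 889. For Cdt1, the plastic libraries read 28.1, 16.8 and 24.9 FPKM without dox and 17.9, 10.7 and 15.9 FPKM with it. In BME, Cdt1 without and with dox was at 40.03 and 16.7 FPKM in line 700 and 34.8 and 35.00 FPKM in line 889, and the mock pair read 57.7 and 44.6 FPKM. Cdt1 protein is destroyed in S phase, which prevents re-licensing. Its mRNA (chromosome 8, 125091915 to 125097028) had the most even change of all members on plastic, at -0.62, -0.61 and -0.62, or 0.636, 0.635 and 0.636 of the untreated FPKM. In BME line 700 its change on the log2(FPKM + 1) scale was the largest of any member, at -1.21. As a ratio of FPKM it was 0.418, compared with 0.397 for Cdc6. Levels of Orc1 on plastic were 1.87, 1.45 and 3.18 FPKM without and 2.08, 0.691 and 2.19 FPKM with dox. The BME pairs of Orc1, untreated first, were 1.54 and 0.811 FPKM, 4.58 and 5.06 FPKM and, for mock, 3.66 and 2.68 FPKM. Orc1, the largest ORC subunit, was expressed at a low level, with changes of 0.10, -0.53 and -0.39 on plastic. The changes of Orc6 were -0.75, -0.12 and -0.30 on plastic and -0.41, 0.09 and -0.31 in the BME pairs. Among the licensing genes the plastic groups were separate for Cdc6 alone.

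The GINS complex and CDC45 turn the loaded MCM ring into an active helicase, with the help of MCM10. Gins2 measured 31.3, 13.9 and 23.3 FPKM in untreated and 14.5, 10.02 and 12.9 FPKM in dox libraries on plastic. Gins2 in BME read 15.7 and 9.93 FPKM without and with dox in line 700, 17.8 and 19.5 FPKM in line 889 and 30.6 and 21.8 FPKM in the mock pair. Gins2 had the largest mean change of the 4 GINS genes on plastic, and its exons overlap Gse1 on the opposite strand. Gins3 on plastic was at 2.42, 0.804 and 2.24 FPKM untreated and at 1.46, 0.781 and 0.779 FPKM with dox. Line 700 in BME had 1.503 and 0.841 FPKM of Gins3 without and with dox, line 889 had 2.57 and 1.80 FPKM, and the mock pair 2.04 and 1.67 FPKM. Gins3 was the member of lowest level in both tables, and its change on plastic ranged from -0.02 in line 700 to -0.87 in line 889. Untreated libraries on plastic held 13.2, 4.99 and 7.64 FPKM of Cdc45, and dox libraries 6.66, 3.18 and 4.39 FPKM. In BME, Cdc45 without and with dox was at 7.56 and 3.39 FPKM in line 700 and 13.3 and 11.7 FPKM in line 889, and the mock pair read 14.8 and 12.1 FPKM. For Mcm10, the plastic libraries read 5.33, 2.93 and 4.07 FPKM without dox and 4.86, 1.28 and 2.05 FPKM with it. All 4 GINS genes, Cdc45 and Mcm10 were lower with dox in each of the 3 plastic pairs, but dox and untreated libraries overlapped for every one of the 6. With BME, Mcm10 stood at 7.73 and 3.64 FPKM (line 700, without and with dox), 13.4 and 10.4 FPKM (line 889) and 12.4 and 9.87 FPKM (mock pair). Gins3, Cdc45 and Mcm10 were lower with dox in both BME lines as well, whereas Gins1, Gins2 and Gins4 were lower in line 700 and not in line 889. On plastic the changes of Gins1 were -0.57, -0.87 and -0.28 and those of Gins4 -0.81, -0.55 and -0.43.

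The 8 polymerase genes encode subunits of polymerase alpha (Pola1, Pola2 and the primase pair Prim1 and Prim2), epsilon (Pole and Pole2) and delta (Pold1 and Pold2). Their median change was -0.52, -0.58 and -0.72 in lines 560, 700 and 889 on plastic and -0.76, 0.00 and -0.25 in the BME pairs of lines 700, 889 and 682. Levels of Pole on plastic were 6.95, 5.86 and 8.11 FPKM without and 5.96, 3.24 and 2.57 FPKM with dox. Pole in BME read 5.68 and 2.44 FPKM without and with dox in line 700, 7.48 and 6.91 FPKM in line 889 and 9.03 and 9.34 FPKM in the mock pair. Pole, the leading-strand polymerase, had the largest mean change of the group on plastic, with the largest part in line 889 (-1.35, compared with -0.19 in line 560). Pola2 measured 31.4, 24.7 and 18.6 FPKM in untreated and 20.8, 21.7 and 16.1 FPKM in dox libraries on plastic. In BME, Pola2 without and with dox was at 30.9 and 18.9 FPKM in line 700 and 31.7 and 30.2 FPKM in line 889, and the mock pair read 39.6 and 34.6 FPKM. Pola2, the accessory subunit of polymerase alpha, had the smallest. The other 6 had mean changes on plastic between -0.73 (Prim1) and -0.47 (Pola1), and Pola1 was higher with dox in line 560 (0.27). Pole2 was the 1 polymerase gene whose plastic groups did not overlap.

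Pcna (chromosome 2, 132074898 to 132079050), which encodes the sliding clamp, was the most abundant member in both tables and was close to its untreated level with dox on plastic. Pcna on plastic was at 138, 86.3 and 117 FPKM untreated and at 121, 74.6 and 126 FPKM with dox. The BME pairs of Pcna, untreated first, were 132 and 92.03 FPKM, 203 and 239 FPKM and, for mock, 219 and 157 FPKM. Its changes on plastic were -0.18, -0.21 and 0.10, and its mean change there (-0.09 ± 0.17, SD, n = 3 lines) was within the spread between lines. The clamp loader genes Rfc2, Rfc3, Rfc4 and Rfc5 were lower in all 3 plastic pairs, with medians of -0.79, -0.47 and -0.56 in lines 560, 700 and 889. Untreated libraries on plastic held 21.7, 10.4 and 14.5 FPKM of Rfc5, and dox libraries 14.03, 6.05 and 6.999 FPKM. Rfc5 in BME read 17.3 and 10.7 FPKM without and with dox in line 700, 24.4 and 25.8 FPKM in line 889 and 27.7 and 23.5 FPKM in the mock pair. For Rfc4, the plastic libraries read 9.89, 3.005 and 5.39 FPKM without dox and 5.91, 2.41 and 3.09 FPKM with it. Rfc5 had the largest and Rfc4 the smallest mean change of the 4, and each shares exon bases with a gene on the opposite strand (Wsb2 and Eif4a2). Line 700 in BME had 9.52 and 5.50 FPKM of Rfc4 without and with dox, line 889 had 13.1 and 12.1 FPKM, and the mock pair 20.3 and 11.7 FPKM. The RPA genes encode the protein that coats single-stranded DNA. Levels of Rpa1 on plastic were 25.00, 17.4 and 29.8 FPKM without and 19.1, 11.7 and 12.8 FPKM with dox. In BME, Rpa1 without and with dox was at 18.6 and 13.7 FPKM in line 700 and 25.7 and 26.8 FPKM in line 889, and the mock pair read 28.5 and 28.7 FPKM. Rpa2 measured 11.9, 5.39 and 7.71 FPKM in untreated and 5.77, 3.75 and 4.05 FPKM in dox libraries on plastic. Both were lower in all 3 plastic pairs and slightly above the untreated level in BME line 889. With BME, Rpa2 stood at 14.3 and 7.48 FPKM (line 700, without and with dox), 14.4 and 14.9 FPKM (line 889) and 22.9 and 16.8 FPKM (mock pair).

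Fen1 and Lig1 encode the flap nuclease and the ligase that finish Okazaki fragments. Fen1 on plastic was at 25.2, 22.5 and 20.3 FPKM untreated and at 18.2, 15.6 and 13.99 FPKM with dox. Fen1 in BME read 26.1 and 16.6 FPKM without and with dox in line 700, 31.6 and 34.9 FPKM in line 889 and 30.3 and 26.3 FPKM in the mock pair. Fen1 was among the members whose plastic groups did not overlap, with changes of -0.45, -0.50 and -0.51, and it shares 1909 exon bases with the unlisted gene model Gm10143 on the opposite strand. Untreated libraries on plastic held 20.7, 9.08 and 11.8 FPKM of Lig1, and dox libraries 13.1, 4.56 and 5.78 FPKM. In BME, Lig1 without and with dox was at 18.5 and 10.2 FPKM in line 700 and 26.5 and 25.1 FPKM in line 889, and the mock pair read 36.1 and 28.7 FPKM. Lig1 had larger changes of -0.62, -0.86 and -0.92, but the groups overlapped, with untreated line 700 below dox line 560.

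Of all role groups, nucleotide supply had the largest mean of its medians on plastic, -0.81 ± 0.20 (SD, n = 3 lines). For Tk1, the plastic libraries read 70.1, 23.2 and 28.2 FPKM without dox and 26.2, 11.96 and 14.2 FPKM with it. The BME pairs of Tk1, untreated first, were 31.5 and 15.7 FPKM, 50.7 and 57.6 FPKM and, for mock, 56.6 and 41.7 FPKM. Tk1 (chromosome 11, 117676840 to 117687406), the thymidine salvage kinase, had the largest mean change of all 43 members on plastic on the log2(FPKM + 1) scale. Its dox levels were at 0.373, 0.515 and 0.502 of the untreated FPKM, although the groups overlapped. The same ratios for Cdc6, a gene of lower level, were 0.619, 0.423 and 0.283. Levels of Rrm2 on plastic were 21.5, 23.6 and 30.9 FPKM without and 17.4, 14.9 and 13.7 FPKM with dox. Rrm2 in BME read 21.6 and 12.6 FPKM without and with dox in line 700, 39.5 and 39.7 FPKM in line 889 and 31.1 and 31.3 FPKM in the mock pair. Rrm1 and Rrm2 (chromosome 12, 25393106 to 25399011) encode the large and small subunits of ribonucleotide reductase. Rrm1 measured 24.9, 22.9 and 32.3 FPKM in untreated and 18.2, 12.1 and 11.4 FPKM in dox libraries on plastic. Dox and untreated libraries on plastic did not overlap for either subunit. Rrm1 (chromosome 7, 109590209 to 109618285) reached -1.43 in line 889, the largest change of any member in any pair on the log2(FPKM + 1) scale. As ratios of FPKM in that line, Rrm1 was at 0.352, and Cdc6 (0.283), Pole (0.317) and Gins3 (0.347) were lower. Line 700 in BME had 26.4 and 15.3 FPKM of Rrm1 without and with dox, line 889 had 35.9 and 33.6 FPKM, and the mock pair 38.4 and 34.5 FPKM. Tyms on plastic was at 13.1, 5.84 and 7.52 FPKM untreated and at 6.68, 4.98 and 3.99 FPKM with dox. In BME, Tyms without and with dox was at 7.40 and 4.91 FPKM in line 700 and 13.4 and 14.5 FPKM in line 889, and the mock pair read 13.8 and 11.6 FPKM. For Tyms, thymidylate synthase, the groups overlapped. Its listed copy Tyms-ps was at most 0.271 FPKM. Rrm1 is given in full because of its values, not by the rule for named genes.

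The genes of G1/S control were mixed. Ccne1 and Ccne2 encode E-type cyclins, which activate CDK2, and E2f1 encodes a factor that drives transcription of the other groups. Untreated libraries on plastic held 16.7, 12.6 and 22.1 FPKM of Ccne1, and dox libraries 12.6, 16.8 and 14.5 FPKM. With BME, Ccne1 stood at 7.25 and 5.25 FPKM (line 700, without and with dox), 12.4 and 18.3 FPKM (line 889) and 6.21 and 9.14 FPKM (mock pair). Ccne1 (chromosome 7, 38883003 to 38892553) was higher with dox in plastic line 700 (0.39), BME line 889 (0.53) and the mock pair (0.49), and lower in the other 3 pairs. For Ccne2, the plastic libraries read 0.844, 2.81 and 3.34 FPKM without dox and 2.37, 2.11 and 1.89 FPKM with it. Ccne2 in BME read 2.55 and 1.94 FPKM without and with dox in line 700, 3.62 and 3.81 FPKM in line 889 and 3.72 and 3.03 FPKM in the mock pair. Ccne2 was higher in line 560 on plastic (0.87), where the untreated library was at 0.844 FPKM, and lower in the other 2. Levels of E2f1 on plastic were 10.2, 9.04 and 13.97 FPKM without and 7.92, 9.02 and 9.30 FPKM with dox. In BME, E2f1 without and with dox was at 9.55 and 6.33 FPKM in line 700 and 12.1 and 13.1 FPKM in line 889, and the mock pair read 16.03 and 14.2 FPKM. E2f1 was lower with dox in plastic lines 560 and 889 and nearly equal in line 700, with changes of -0.33, 0.00 and -0.54.

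The last group acts on newly replicated chromatin. UHRF1 recruits the maintenance DNA methyltransferase to hemimethylated DNA, and CHAF1A and CHAF1B are subunits of the chromatin assembly factor that deposits histones behind the fork. Uhrf1 measured 20.4, 14.5 and 14.6 FPKM in untreated and 12.7, 8.58 and 6.83 FPKM in dox libraries on plastic. The BME pairs of Uhrf1, untreated first, were 21.3 and 10.3 FPKM, 28.2 and 27.3 FPKM and, for mock, 41.7 and 31.1 FPKM. Uhrf1 (chromosome 17, 56442744 to 56462909) was separate between groups on plastic, with changes of -0.65, -0.69 and -1.0. Chaf1a on plastic was at 12.3, 6.83 and 10.2 FPKM untreated and at 7.14, 5.07 and 4.92 FPKM with dox. Chaf1a in BME read 8.99 and 4.54 FPKM without and with dox in line 700, 14.02 and 13.4 FPKM in line 889 and 14.9 and 12.3 FPKM in the mock pair. The groups overlapped for Chaf1a and did not for Chaf1b, whose changes were -1.22, -0.37 and -0.71 on plastic. In all, every dox library was below every untreated library on plastic for 10 of 43 members, compared with 7.26% of all genes (Mcm2, Mcm3, Cdc6, Pole2, Rfc2, Fen1, Rrm1, Rrm2, Uhrf1 and Chaf1b). For 0 of 43 was every dox library above every untreated one, compared with 7.87%.

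**Figure D4:**
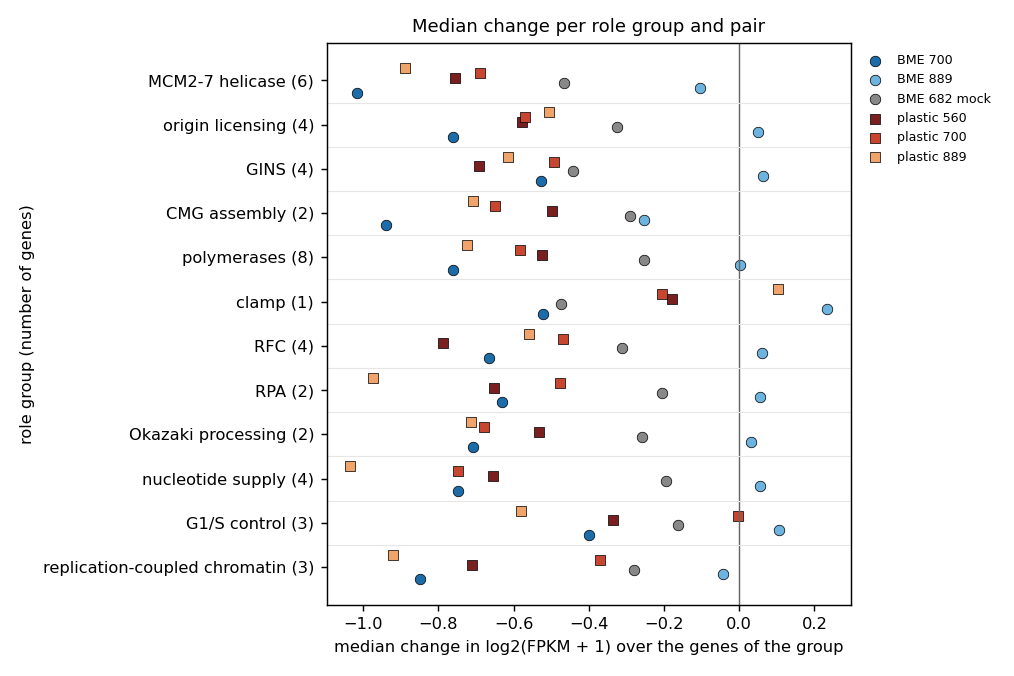
Median change in log2(FPKM + 1) over the genes of each role group (y axis, number of genes in parentheses), for BME pairs (circles) and plastic pairs (squares). In 10 of the 12 groups all plastic medians lie under -0.3. The clamp (Pcna, -0.21 to 0.10) and G1/S control (-0.58 to 0.00) are the others.

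Lines 700 and 889 were grown in both environments, so their changes can be set side by side. In line 889 all 43 members had a lower change on plastic than in BME, with a median difference of -0.74 (range -1.34 for Rrm1 to -0.13 for Pcna), compared with 49.7% of the 11977 genes tested in both tables. In line 700 it was lower for 7 of 43, with a median difference of 0.25 (-0.26 for Gins4 to 0.79 for Ccne1), compared with 46.8%. The median difference between environments thus had opposite signs in the 2 lines, which was not tested. The difference of the dox change between plastic and BME over all libraries (limma interaction term) called 0 of 43 members, compared with 0.0% of all genes, and 0 of 43 passed at an unadjusted p under 0.05 in either direction, compared with 1.23% of all genes lower and 1.3% higher on plastic. Without the dox library of line 700 in BME, 5 of 43 members were lower at an unadjusted p, compared with 1.72% of all genes in that fit, and 0 after adjustment. They were Ccne1, Cdc6, Fen1, Rrm1 and Rrm2. Without the dox library of line 889 in BME, 1 member (Mcm4) was higher at an unadjusted p, compared with 1.3%. In both of these fits the lone BME dox library was assumed to vary like the other groups.

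**Figure D5:**
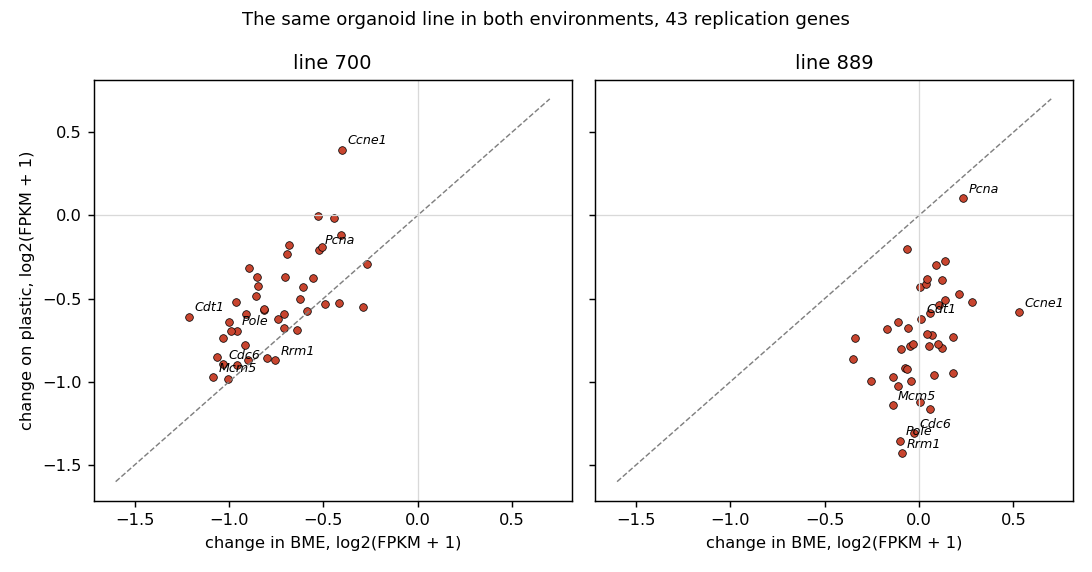
Change of the 43 replication genes in BME (x axis) against plastic (y axis), log2(FPKM + 1), for the 2 lines grown in both. The dashed line marks equal change. All 43 points of line 889 lie below it (median difference -0.74), and 36 of 43 points of line 700 lie above it (median difference 0.25).

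Each comparison was then tested over all genes with limma, with calls made where the adjusted p was under 0.05 and the change exceeded 1 in size. On plastic 0 of 43 members were called, compared with 0.0324% of the genes tested (4 genes). At an unadjusted p under 0.05, 12 of 43 were lower and 0 higher, compared with 3.73% of all genes lower and 4.56% higher. They were Mcm2, Mcm3, Cdc6, Pole, Pole2, Rpa1, Fen1, Rrm1, Rrm2, Uhrf1, Chaf1a and Chaf1b. The limma change was -0.91 (SE 0.23, adjusted p 0.396) for Cdc6, the lowest adjusted p of the members, -0.91 (SE 0.25, adjusted p 0.435) for Rrm1, -1.03 (SE 0.47, adjusted p 0.633) for Mcm5 and -1.08 (SE 0.48, adjusted p 0.617) for Tk1. With 1 library left out, the change ranged from -1.08 to -0.78 for Cdc6, from -1.39 (without dox line 560) to -0.69 (without untreated line 560 or dox line 700) for Mcm5, and from -1.40 (without dox line 560) to -0.61 (without untreated line 560) for Tk1. The mean level of Cdc6 was 1.89 ± 0.617 FPKM (SD, n = 3) in dox libraries, against 4.36 ± 0.484 FPKM (SD, n = 3) in untreated ones. With the organoid line as a block, 31 of 43 members were lower at an unadjusted p, compared with 6.05% of all genes, and 0 were called, compared with 0.0568%. The lowest adjusted p was then 0.157, for Mcm5. Over the 13 alternatives run on plastic the adjusted p of Cdc6 ranged from 0.243 to 0.999 and that of Mcm5 from 0.157 to 0.999. Leaving out any 1 of the 6 libraries gave 4 to 23 members lower at an unadjusted p, and the share of all genes moved too. The count was 23 without dox line 560 (4.47% of all genes lower in that fit) and 22 without untreated line 700 (3.08%). It was 6 without untreated line 560 (4.85%), 5 without dox line 700 (2.89%) or untreated line 889 (2.03%), and 4 without dox line 889 (1.82%).

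In BME limma called 0 of 43 members between the 2 dox and 4 control libraries, compared with 0.0231% (3 genes) of those tested. At an unadjusted p, 1 member was lower and 0 higher, compared with 1.47% of all genes lower and 2.62% higher. The member was Cdt1, at -0.82 (SE 0.33, adjusted p 0.959). Its change was -1.33 without dox line 889 and -0.31 without dox line 700, the ends of its range with 1 library left out. Its mean level was 25.9 ± 12.9 FPKM (SD, n = 2) in dox libraries, against 44.3 ± 9.82 FPKM (SD, n = 4) in controls. With the line as a block, 2 were lower (Mcm10 and Pola1), compared with 3.03%, and the lowest adjusted p was 0.670, for Mcm10. Over the 16 alternatives in BME the adjusted p of Mcm10 ranged from 0.353 to 1 and that of Cdt1 from 0.483 to 1. The result turned on which dox library was kept. Without dox line 889, 37 of 43 members were lower at an unadjusted p, compared with 4.62% of all genes in that fit, with the lone dox library of line 700 assumed to vary like the other group. Without dox line 700 (1.14% of all genes), the mock library (0.717%) or untreated line 682 (0.593%), 0 were. Without dox line 700, 1 member (Ccne1) was higher, compared with 2.99% of all genes, on the same assumption for the lone dox library of line 889.

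Among 46 other replication factors, 45 were listed and 0 were called in either environment. Their median change was -0.11, -0.38 and -0.38 in lines 560, 700 and 889 on plastic and -0.43, -0.08 and -0.20 in the BME pairs of lines 700, 889 and 682. The limma changes on plastic were most negative for Chtf18, a subunit of the alternative clamp loader (-1.01, SE 0.28, adjusted p 0.435), and Asf1b, a histone chaperone (-0.96, SE 0.38, adjusted p 0.583). They were most positive for Rrm2b (0.52, SE 0.41, adjusted p 0.805), the p53-inducible reductase subunit used outside S phase, and Pold4 (0.39, SE 0.39, adjusted p 0.852), an accessory subunit of polymerase delta. Single lines carried both: in lines 560, 700 and 889, the changes of Rrm2b were 1.16, 0.41 and 0.00 (mean 0.20 without line 560) and those of Pold4 -0.56, 1.13 and 0.60 (mean 0.02 without line 700). Of 15 E2F and RB family and related genes, 14 were tested on plastic and 0 were called. Their median change over the 15 was 0.25 in plastic line 560, with 11 higher, against -0.22 and -0.29 in lines 700 and 889, and -0.27, -0.05 and -0.09 in the BME pairs. The limma changes on plastic were most negative for Ccna2, the S-phase cyclin (-1.13, SE 0.49, adjusted p 0.613), and the repressor E2f7 (-0.85, SE 0.35, adjusted p 0.5995), and most positive for E2f3 (0.60, SE 0.37, adjusted p 0.736) and Rb1 (0.31, SE 0.41, adjusted p 0.892). Both had their largest change in line 560. In the same order of lines, the changes were 1.19, 0.35 and 0.26 for E2f3 (mean 0.31 without line 560). For Rb1 they were 1.33, -0.22 and -0.19 (mean -0.20), so the positive change of Rb1 rested on that line.

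Epithelial markers were measured beside these genes and were uneven. The summed level of the 7 in BME was 6005 to 6978 FPKM with dox and 3128 to 3889 FPKM in the controls, but Krt8 and Krt18 made up 69.9% to 84.5% of it. The other 5 summed to 931 and 1216 FPKM with dox and 756 to 1059 FPKM in the controls, which overlap. Both dox libraries were above all controls for 3 of 7 markers, compared with 6.33% of all genes, and in BME line 889 Cdx2 (-0.33) and Krt20 (-0.10) were lower with dox. On plastic the sum was 8617 to 15556 FPKM with dox and 8485 to 9110 FPKM untreated, with 86.7% to 95.3% of it in Krt8 and Krt18, and 0 of 7 markers were separate. The other 5 summed to 1147, 737 and 870 FPKM with dox on plastic and 650, 592 and 637 FPKM untreated. Every dox library was thus above every untreated one in this sum, but the markers did not move together. In line 889 Epcam went from 147 to 495 FPKM with dox, Vil1 from 52.1 to 53.3 FPKM and Krt20 from 0.592 to 1.29 FPKM. Cdh1 went from 399 to 296 FPKM and Cdx2 from 38.4 to 24.3 FPKM. Krt20, a keratin of differentiated epithelium, had a limma change of 1.32 (SE 0.67, adjusted p 0.655) on plastic. Its changes per line were 2.86, 0.57 and 0.52, the largest from an untreated level of 0.967 FPKM, and the mean without line 560 was 0.55. For Epcam the change was 0.97 (SE 0.52, adjusted p 0.673), with a mean of 0.58 without line 889. Lowest were Cdx2 (-0.29, SE 0.71, adjusted p 0.953) and Krt8 (0.15, SE 0.30, adjusted p 0.942). The immune marker Cd68 had a change of 0.98 (SE 0.87, adjusted p 0.826) that rested on dox line 889, at 38.7 FPKM. Its changes per line were -0.25, -0.24 and 3.42, with a mean of -0.24 without line 889. The summed immune markers, 3.74 to 38.8 FPKM with dox and 2.83 to 15.1 FPKM untreated on plastic, have their highest value in that same library. Mesenchymal markers summed to 1.01 to 7.07 FPKM with dox and 1.04 to 4.17 FPKM in the controls in BME, and endothelial markers to at most 0.671 FPKM in any library. The part of these shifts, and of the estimated depth difference on plastic, in the levels of the replication genes was not tested.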

How the data were processed

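RNA-Seq libraries of tumor organoids were analysed in 2 tables of 6 libraries, 1 for BME and 1 for plastic. The values are FPKM as deposited by the authors, who quantified reads with kallisto and tested them with DESeq2; the submitters' processing notes also name mm9. Versions and annotation are not given in the sources used here. A pair of tables with the authors' own dox comparison (mean normalized count, log2 fold change, standard error, statistic, p and adjusted p) was not used.

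Whether the deposited FPKM were scaled to library totals was not tested. The median change of all genes ran from -0.0077 to 0.0053 over the same-line pairs, so a change is relative to the other genes. FPKM holds no counts. Depth (about 12.8 to 20.4 M reads) was estimated from steps between low values of genes with 1 transcript. Of these values, 68.8% to 77.0% came out as whole reads within 0.05, too few for a count test. The depth estimate is a read total only if FPKM was scaled to that total. Its precision is therefore approximate.

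Genes with a mean of at least 0.5 FPKM in a table were tested on log2(FPKM + 1) with limma 3.58.1 in R 4.3.3 (trended variance, Benjamini-Hochberg adjustment over all genes of the table). Calls needed an adjusted p under 0.05 and a change of over 1 in either direction. The comparisons were dox against untreated on plastic (3 against 3), dox against untreated and mock in BME (2 against 4), and the difference of the change between both environments. The code was tested on simulated data. P-values measure the spread between these libraries, which may be in part technical.

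A line number marks organoids of the same line, and same-numbered libraries deviated together from their group means (r = 0.70 and 0.68 in BME, and 0.46, 0.61 and 0.25 on plastic), so the line was also fitted as a block. The alternatives were another pseudocount, other filters, median centring, quantile normalization, no variance trend, the block, other uses of the mock library, and leaving out each library.

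The 43 genes, their role groups and the other lists were chosen with earlier results of these data known. Values in every library are given for Mcm2 to Mcm7, Pcna, Cdc6, Cdt1, Orc1, E2f1, Ccne1, Ccne2, Rrm2, Tyms and Uhrf1, and for the members of lowest and highest mean change on plastic in each role group. From other lists the 2 lowest and 2 highest genes by limma change on plastic are named. Promoter windows came from RefSeq (GRCm38.p6), and gene positions from GENCODE vM1 (NCBIM37). Figures were drawn with matplotlib 3.10.9.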

Additional observations from a re-analysis of the deposited data

How the results depend on the processing

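The limits lie in the few lines. No member was called under any alternative, but how many were lower at an unadjusted p depended on single libraries, most of all in BME, where 2 dox libraries were fitted against 4 controls. Over all genes, the 3 calls in BME became 1 with a pseudocount of 0.1 and 0 with a filter at a mean FPKM of 1, with the mock library left out or counted with dox, and 0 to 37 when 1 library was left out. The 4 calls on plastic became 10 with a pseudocount of 0.1, 0 with no filter, and 0 to 55 when 1 library was left out. The 0 calls for the difference between environments became 5 with no filter. Of the members, the 1 lower at an unadjusted p in BME became 0 with no filter or with the mock library left out or counted with dox, 2 with quantile normalization, and 0 to 37 when 1 library was left out. The 12 on plastic became 4 to 23, and the 0 for the difference 0 to 5. The E2F-type motif was in 14 windows, and in 9 when only upstream bases were read.

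With the organoid line as a replicate block, calls over all genes were 0 in BME and 7 on plastic, and members lower at an unadjusted p were 2 in BME and 31 on plastic. With the mock library counted with dox as well, a fit chosen after seeing the data, there were 0 calls over all genes and 10 members lower at an unadjusted p in BME, compared with 5.1% of all genes in that fit. The block changed no other call.

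The members' median per pair, averaged over lines, was below 0 with another pseudocount, median centring and quantile normalization in both environments. With 1 line left out it was -0.66 to -0.58 on plastic and -0.75 to 0.01 in BME, where it was above 0 without line 700. Of the named members' changes, 466 of 480 alternatives in BME and 380 of 390 on plastic kept their direction. In BME without the dox library of line 700, 13 turned from below to above 0, and without that of line 889 Ccne1 turned from above to below 0. The ranges with 1 library left out were -1.70 to 0.13 for Mcm5, -1.52 to 0.0085 for Cdc45, -0.92 to 0.45 for Pcna, -1.13 to 0.62 for Orc1, -0.91 to 0.031 for E2f1, -0.60 to 1.03 for Ccne1, -0.51 to 0.19 for Ccne2, -1.20 to 0.38 for Rrm2, -1.05 to 0.34 for Tyms, -1.03 to 0.17 for Rfc5, -0.83 to 0.10 for Rpa1, -0.74 to 0.28 for Fen1, -1.43 to 0.38 for Tk1 and -1.27 to 0.11 for Chaf1a. On plastic they were -0.28 to 0.15 for Pcna, -0.44 to 0.024 for Orc1, -0.38 to 0.00064 for Ccne1 and -0.38 to 0.24 for Ccne2. The change of Ccne2 on plastic was 0.070 with a pseudocount of 0.1 and 0.0045 with quantile normalization. The cause was not tested.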

Other observations

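Before dox the lines already differed in these genes. In BME, the untreated library of line 700 was below the mean of the 3 untreated libraries for all 43 members, with a median of -0.35 on the log2(FPKM + 1) scale, whereas untreated line 682 had a median of 0.31 and untreated line 889 of 0.02. On plastic, untreated line 700 was below the untreated mean for 41 of 43 members (median -0.39), and untreated line 560 had a median of 0.34. With dox, line 700 was the lowest library in both environments, at -1.16 in BME and -0.89 on plastic, and the mock library of line 682 was at 0.00, level with the untreated mean.

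Summed over the 6 MCM subunits, the level was 239 FPKM untreated and 116 FPKM with dox in BME line 700. It was 303 and 283 FPKM in BME line 889, and 436 and 313 FPKM in the mock pair. The plastic sums, untreated first, were 274 and 167 FPKM for line 560, 160 and 99.8 FPKM for line 700, and 226 and 120 FPKM for line 889. Pcna, the member of highest level, was at 185 ± 46.1 FPKM (SD, n = 3) in untreated BME libraries and 114 ± 25.8 FPKM (SD, n = 3) in untreated plastic libraries, and Gins3, the lowest, at 2.04 ± 0.53 and 1.82 ± 0.89 FPKM.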
